A study of Mus musculus with 12 samples.

Results

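The genes described here are 42 genes of the cell cycle and of DNA replication, chosen by name from the 23421 gene symbols of an expression table of mouse T-positive cells. All 42 were found. They fall into 13 replication genes, 10 genes of G1 and of the step from G1 to S phase, and 19 genes of S/G2 and mitosis. RNA was sequenced from cells that had been sorted for T (Brachyury), a transcription factor that marks the primitive streak and early mesoderm, on a mixed 129S2/C57Bl6J background. From embryos came 1 wild type library, which covers Theiler stages TS12 and TS13 together, and 2 libraries of T_Y88A, an amino acid substitution in T, from TS12 and from TS13. From culture came 1 library of each genotype at Day 4 of in vitro differentiation from embryonic stem cells, which per the labels' protocols received BMP4 at 20 ng/mL for 18 hours and then WNT3A and FGF8 at 40 ng/mL each. The labels do not say whether embryos were pooled, how many clones gave the cultures, or whether T_Y88A cells carried a second T allele. The series design text speaks of heterozygous embryos as the wild type, and the column name of the wt-labelled embryo library begins like those of T_Y88A, so directions between genotypes rest on the sample labels and the library is called wt-labelled throughout.

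A dividing cell copies its DNA once in S phase and shares it out in mitosis. Before S phase, Cdc6 and Cdt1 load the MCM helicase onto origins, and geminin (Gmnn) blocks Cdt1 once copying has begun. Cyclins D with Cdk4 or Cdk6, and cyclins E with Cdk2, inactivate the Rb protein, which frees E2F factors to switch on replication genes. Cyclins A and B with Cdk1 drive entry into mitosis, and many of the genes used there are transcribed late in the cycle through promoter elements named CHR and CCAAT box. Cells of the gastrulating mouse embryo and mouse embryonic stem cells are both known for fast cycles.

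FPKM (fragments per kilobase of gene model, scaled to the mapped fragments of the library) keep no read totals. From the steps between low values, depth set against the wt-labelled embryo library was 0.754 to 1.04 in 3 libraries and 0.493 in Day 4 T_Y88A. These are rough estimates, as the ratio behind each was shared by 16.5% to 25.9% of the low genes. T stood between 26.99 and 72.9 FPKM in the 5 libraries. The summed level of 9 streak and presomitic genes, T among them, was 352 FPKM in the wt-labelled embryos. It was 319 and 184 FPKM in the TS12 and TS13 mutant libraries. At Day 4 it was 110 FPKM in the wt-labelled and 91.3 FPKM in the T_Y88A library, where 5 and 4 of the 9 reached 1 FPKM. Among them, Msgn1 and Wnt3a, 12.1 FPKM or more in the wt-labelled embryo library, were at most 0.409 FPKM in the Day 4 libraries. Markers of other cell types differed between the sets. The summed level of 16 blood and endothelial genes was 8461 FPKM in the wt-labelled embryos, 1433 and 2855 FPKM in the TS12 and TS13 mutant libraries, and 3.69 and 4.90 FPKM in the Day 4 libraries, where the globins Hba-x, Hbb-bh1 and Hbb-y were listed at 0. The sum of 8 pluripotency genes ran the other way, at 12.4 to 65.1 FPKM in embryos and at 607 and 919 FPKM at Day 4, and that of 6 endoderm genes was 2.76 to 13.5 FPKM against 184 and 219 FPKM. The sum of 8 neural genes was 33.9 to 86.3 FPKM in embryos and 48.4 and 37.7 FPKM at Day 4, and that of 8 fibroblast genes, which would mark feeder cells, was 17.9 to 20.6 FPKM and 1.57 and 1.56 FPKM. In bulk samples, fewer cells of a type and less RNA per cell cannot be told apart.

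None of the cell cycle genes was listed at 0 in any library. Their median level per gene length was 60.5 to 73.2 FPKM, above 87.8% to 91.4% of the genes with at least 1 FPKM in the same library. Medians were 97.5 to 131 FPKM for replication genes and 58.5 to 96.3 FPKM for mitosis genes. For G1/S genes they were 26.3 to 28.8 FPKM in embryos and 10.9 and 11.3 FPKM at Day 4, where 5 of the 10 lay below the median gene. Pcna, the sliding clamp of DNA polymerase, led the replication genes in every library at 329 to 583 FPKM. Among G1 and G1/S genes Cdk4, the kinase partner of the D-type cyclins, was highest in every library at 175 to 315 FPKM. Rb1, which encodes the Rb protein, and E2f1, its E2F partner, stood between 2.02 and 5.49 FPKM. Top2a, the topoisomerase that untangles sister DNA, was highest of the mitosis genes at 253 to 273 FPKM in embryos and 575 and 470 FPKM at Day 4. The plot of levels by library shows the embryo points of most genes close together and the Day 4 points above or below them.

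**Figure D1:**
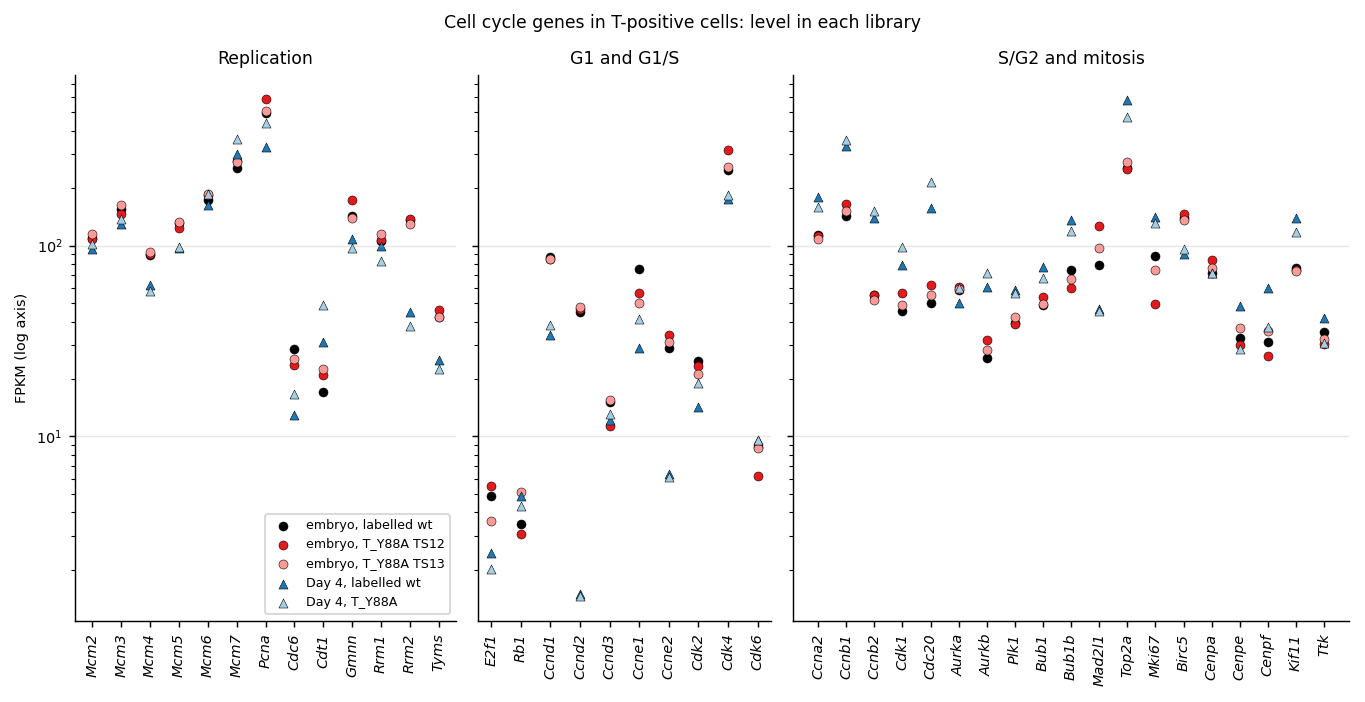
FPKM on a log axis of the 42 genes in each of the 5 libraries, in panels by role; circles are embryo libraries and triangles Day 4 libraries, 1 point per library. Ccnd2 stands at 45.0 to 47.5 FPKM in embryos and at 1.50 and 1.46 FPKM at Day 4, while Cdc20 and Ccnb2 lie higher at Day 4.

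The first comparison sets the 3 embryo libraries against the 2 Day 4 libraries, with genotype as a covariate in a limma fit over the whole table. Mitosis genes were mostly lower in the embryo libraries, and replication and G1/S genes mostly higher. Among the 42 genes, 15 were higher and 14 lower in embryos at an adjusted p under 0.05. Of all 11602 genes tested, 26.0% were called higher and 25.9% lower, so a call by itself is common in this comparison. The direction divided by role. Of the 19 mitosis genes 13 were lower and 2 higher, of the 13 replication genes 7 were higher and 1 lower, and of the 10 G1/S genes 6 were higher and 0 lower (limma). At an unadjusted p under 0.05 there were 2 more, Cdk2 higher (0.46) and Mcm7 lower (-0.33). The share of all genes at that threshold is not given here. The median log2 differences were -0.58, 0.40 and 0.68, beside 0.01 over all genes tested. Under quantile normalization the replication count was 4 higher and 2 lower, with a median of 0.10, and without T_Y88A TS12 it was 4 higher and 1 lower.

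Embryo and Day 4 libraries that do not overlap are common in the whole table. For 19 of the 42 genes every embryo library lay above both Day 4 libraries and for 16 every one lay below. Among all genes tested the shares were 34.8% and 34.0%, so the counts over the 42 genes are not read as a result about them. Within the wt-labelled libraries the median log2 difference, embryo minus Day 4, was -0.66 for mitosis, 0.39 for replication and 0.76 for G1/S genes, and within T_Y88A it was -0.52, 0.38 and 0.49. The direction was the same in both genotypes for 38 of the 42 genes, and differed for Mcm6, Aurka, Cenpe and Ttk. The share of all genes with the same direction is not given here, so the count is not read as a result. Differences of Mcm6, Aurka, Cenpe and Ttk did not pass the test. The fit combines the differences of both genotypes, so opposite signs bring its estimate toward 0, and this outcome is no check on the calls. Within each library the mean log2(FPKM + 1) of mitosis genes lay 0.70 to 0.73 below that of replication genes in embryos and 0.29 and 0.12 above it at Day 4. The embryo and Day 4 sets differ in tissue, culture, stage and in the marker sums given above, and these cannot be told apart; the part of other cell types in the difference was not tested.

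**Figure D2:**
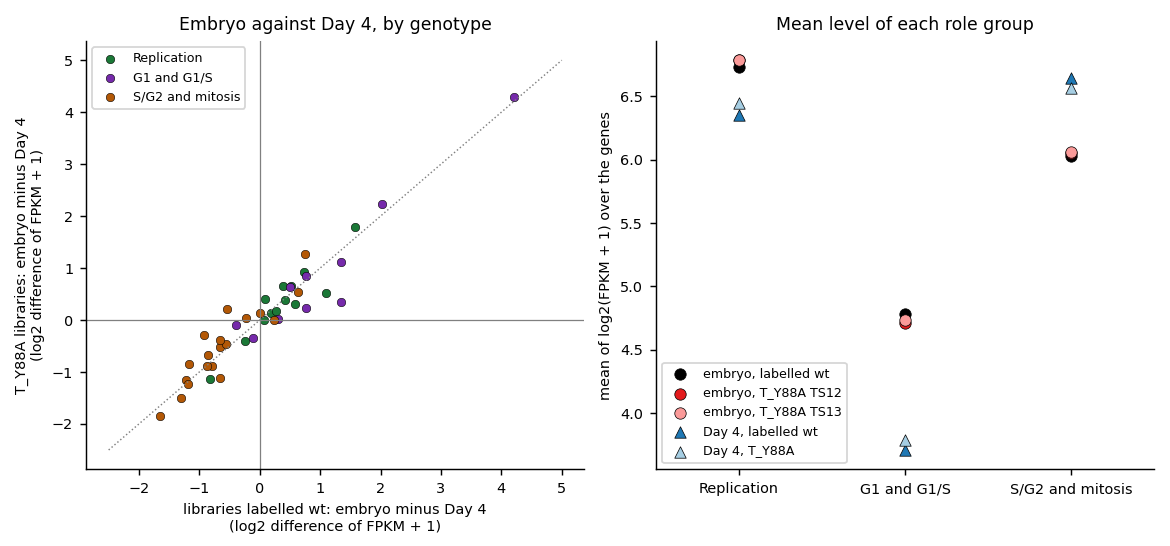
Left, log2 difference of FPKM + 1, embryo minus Day 4, within wt-labelled libraries (horizontal) and within T_Y88A (vertical, mean of 2 embryo libraries), 1 point per gene, with the dotted line marking equal differences. Right, mean log2(FPKM + 1) of each role group, 1 point per library; the mitosis mean is 6.03 to 6.06 in embryos and 6.64 and 6.56 at Day 4.

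Cdc20, the activator of the anaphase-promoting complex that starts chromosome separation (chromosome 4, 118432901 to 118437343, mm10), had the largest decrease among mitosis genes. Its level was 49.8 FPKM in wt-labelled embryos, 62.4 FPKM in T_Y88A at TS12 and 55.2 FPKM at TS13, and in culture 158 FPKM in the wt-labelled and 214 FPKM in the T_Y88A library. Both Day 4 libraries lay above all embryo libraries, by a ratio of means of 3.33 (log2 difference -1.76 ± 0.14 SE, limma adjusted p = 4.47e-05). Cyclins B1 and B2, the partners of Cdk1 at mitotic entry, moved alike. Ccnb1 stood at 143, 165 and 151 FPKM in embryos, in the same order, and at 334 and 355 FPKM at Day 4 (-1.18 ± 0.13 SE, adjusted p = 0.000215, limma). Ccnb2 stood at 55.3, 54.8 and 51.6 FPKM against 139 and 152 FPKM (-1.42 ± 0.13 SE, adjusted p = 0.000105, limma). B1 made up 70.0% to 75.1% of the summed cyclin B level in every library, so the balance between them hardly differed. Aurkb, the kinase of the chromosomal passenger complex, stood at 25.9, 32.1 and 28.3 FPKM in embryos and 60.4 and 71.7 FPKM at Day 4 (-1.21 ± 0.14 SE).

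Further mitosis genes lower in embryos were Top2a (-0.98), the proliferation antigen Mki67 (-0.92), the spindle checkpoint kinases Bub1b (-0.88) and Bub1 (-0.50), Cdk1 (-0.84), the spindle motor Kif11 (-0.75), cyclin A2 (Ccna2, -0.58), the kinetochore protein Cenpf (-0.56) and the mitotic kinase Plk1 (-0.50), all as log2 differences with adjusted p from 0.000808 to 0.0445 in limma. Calls for Cenpf, Bub1, Plk1 and Mki67 ended under at least 1 alternative setting or left-out library. For Cenpf the difference was -0.28 without either wt-labelled library (limma adjusted p = 0.291 and 0.308) and -0.92 without Day 4 T_Y88A. Mki67 spread widely among the embryos themselves, at 88.5, 49.3 and 74.2 FPKM, below 141 and 132 FPKM at Day 4. Mad2l1 and Birc5 went against the group. Mad2l1, the checkpoint protein that holds Cdc20 inactive, stood at 79.1, 127 and 97.6 FPKM in embryos and 46.7 and 45.6 FPKM at Day 4 (1.05 ± 0.18 SE, limma adjusted p = 0.00179). Birc5, survivin, a partner of Aurkb in the passenger complex, stood at 140, 146 and 136 FPKM against 90.2 and 96.3 FPKM (0.58 ± 0.13 SE, adjusted p = 0.00597, limma; 0.38 under quantile normalization, adjusted p = 0.0342). For Aurka, the centrosome kinase, Cenpa, the centromeric histone, Cenpe, a kinetochore motor, and Ttk, a checkpoint kinase, the 95% interval of the difference included 0. The widest of these, for Cenpe, ran from -0.58 to 0.34, and Day 4 values of that gene were 48.2 and 28.7 FPKM around embryo values of 30.0 to 37.0 FPKM.

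**Figure D3:**
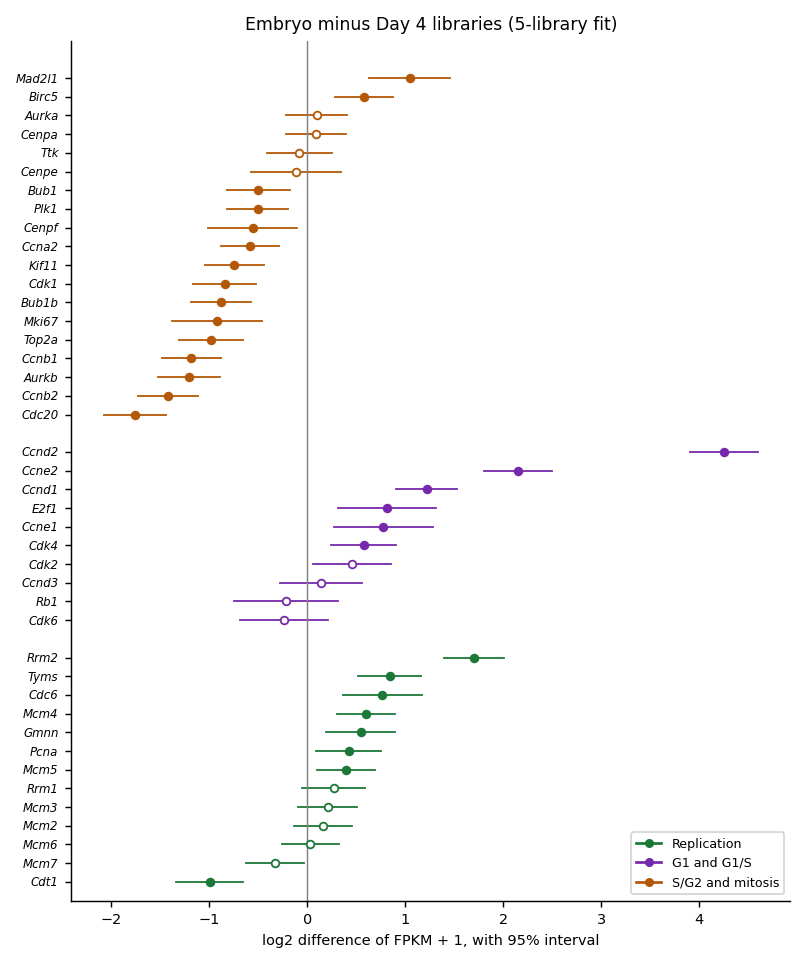
Log2 difference of FPKM + 1, embryo minus Day 4 libraries, from the limma fit over 5 libraries, with lines for the 95% interval; filled points have an adjusted p under 0.05. Mitosis points lie mostly left of 0, down to -1.76 for Cdc20, and replication and G1/S points mostly right, up to 4.25 for Ccnd2.

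Promoter sequences are shown for 2 mitosis genes that were lower in embryos and for the licensing genes Cdc6 and Cdt1, which differed in opposite directions, since late-cycle and S-phase genes are known to carry different elements. RefSeq windows of GRCm38.p6 (mm10) from 250 bases before to 50 after a start site were at hand for 34 of the 42 genes, in 36 windows. The start of the window was the first base of the gene as listed in 21 windows, lay up to 100 bases inside the gene in 8, and lay further inside in 7, among them that of Cdc6, by 442 bases. Capitals mark the CHR element, searched as TTTGAA, the CCAAT box, searched by the letters of its name, and 3 forms of the E2F site, which are TTTCCCGC, TTTGGCGC and TTTCGCGC, all on both strands; no matches in these 4 windows overlap. The windows are Cdc20 (chr4:118437294-118437593, minus strand), Ccnb2 (chr9:70421505-70421804, minus strand), Cdc6 (chr11:98907901-98908200, plus strand) and Cdt1 (chr8:122567765-122568064, plus strand).
Cdc20: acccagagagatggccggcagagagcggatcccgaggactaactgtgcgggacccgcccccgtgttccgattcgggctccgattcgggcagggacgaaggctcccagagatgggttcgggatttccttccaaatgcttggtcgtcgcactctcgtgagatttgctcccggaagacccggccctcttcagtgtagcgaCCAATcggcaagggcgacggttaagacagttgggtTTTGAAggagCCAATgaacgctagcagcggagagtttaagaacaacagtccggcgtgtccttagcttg
Ccnb2: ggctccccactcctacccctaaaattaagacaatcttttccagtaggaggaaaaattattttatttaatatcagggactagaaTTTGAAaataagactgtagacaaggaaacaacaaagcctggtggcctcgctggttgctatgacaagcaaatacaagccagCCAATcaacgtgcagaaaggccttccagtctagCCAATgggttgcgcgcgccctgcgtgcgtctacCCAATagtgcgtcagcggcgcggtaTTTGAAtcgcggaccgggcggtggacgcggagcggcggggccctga
Cdc6: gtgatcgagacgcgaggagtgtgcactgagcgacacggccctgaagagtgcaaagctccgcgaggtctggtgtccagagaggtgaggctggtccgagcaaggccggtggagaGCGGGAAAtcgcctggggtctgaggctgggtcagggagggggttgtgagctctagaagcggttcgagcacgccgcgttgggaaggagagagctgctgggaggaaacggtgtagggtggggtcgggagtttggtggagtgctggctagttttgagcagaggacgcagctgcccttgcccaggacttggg
Cdt1: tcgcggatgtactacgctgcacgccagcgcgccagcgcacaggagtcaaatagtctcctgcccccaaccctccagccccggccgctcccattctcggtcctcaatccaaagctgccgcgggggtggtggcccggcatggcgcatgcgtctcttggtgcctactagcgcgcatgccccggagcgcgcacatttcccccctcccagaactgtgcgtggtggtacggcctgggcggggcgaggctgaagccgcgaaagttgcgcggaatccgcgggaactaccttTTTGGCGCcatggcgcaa

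Counted from the start site of each window, negative before it, Cdc20 holds a CHR match at -18 between CCAAT boxes at -53 and -8. Ccnb2 holds CHR matches at -167 and 4, with 3 CCAAT boxes between. The Cdc6 and Cdt1 windows have 1 E2F match each, at -138 and at 32; the Cdc6 match thus lies inside the gene as listed. CHR letters were present in 12 of 17 mitosis windows (70.6%), 1 of 12 replication windows (8.33%) and 0 of 7 G1/S windows, beside 17.9% of all 32817 windows and 11.5% of windows of the genes tested. E2F letters were present in 6 of 12 replication windows (50.0%), for Cdc6, Cdt1, Mcm3, Mcm5, Mcm6 and Mcm7, in 1 G1/S window (Cdk2) and in 1 mitosis window (Cdk1), beside 1.84% of all windows and 3.66% of windows of the genes tested. CCAAT boxes were present in 15 of 17 mitosis and 9 of 12 replication windows and 2 of 7 G1/S windows, beside 37.4% of all and 38.4% of windows of the genes tested. Of the mitosis genes with a CHR match, Bub1b, Ccnb2, Cdc20, Cdk1, Cenpf, Kif11, Mki67, Plk1 and Top2a were called lower in embryos. Aurka, Cenpa and Ttk have a match and did not pass the test. Mitosis windows without a match were those of Ccnb1 and Bub1, called lower, Mad2l1 and Birc5, called higher, and Cenpe, which did not pass. Cdc6 and Cdt1 both have an E2F match and moved in opposite directions. Companion lists of other genes of the same roles, described below, were searched too. CHR letters were in 38 of 73 companion mitosis windows (52.1%), 10 of 50 replication windows (20%) and 11 of 39 G1/S windows (28.2%). E2F letters were in 12 of 50 companion replication windows (24%), 10 of 39 G1/S windows (25.6%) and 8 of 73 mitosis windows. The split of CHR and E2F letters by role was thus weaker among companion genes. A match is a description of these letters, not evidence of binding.

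**Figure D4:**
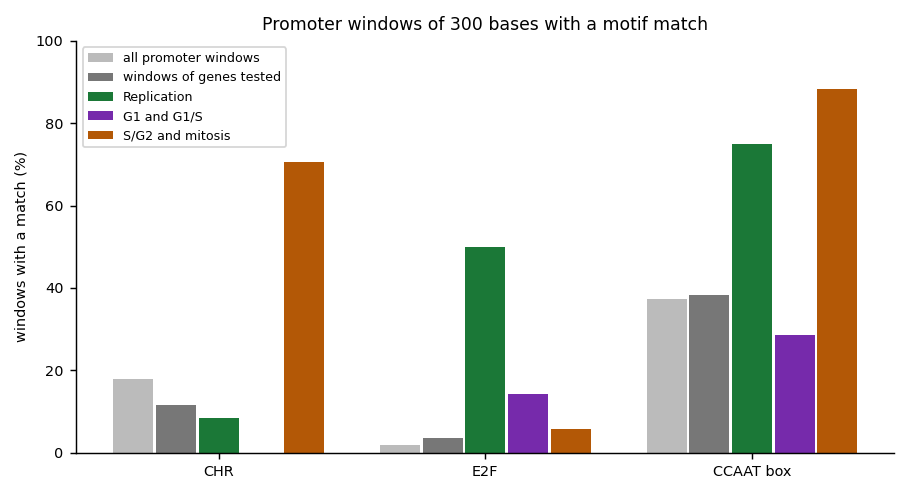
Share of promoter windows of 300 bases with a match to each element, in percent, for all windows, windows of the genes tested and the 3 role groups. The CHR share is 70.6% in mitosis windows and the E2F share 50.0% in replication windows. Among companion genes, given in the text, the same shares are 52.1% and 24%.

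Among replication genes Rrm2, the regulated subunit of ribonucleotide reductase, which makes DNA precursors (chromosome 12, 24708254 to 24714146), differed most. It stood at 136, 138 and 130 FPKM in embryos and at 44.9 and 37.8 FPKM at Day 4, a ratio of means of 3.26 (log2 difference 1.70 ± 0.13 SE, limma adjusted p = 4.68e-05). Its partner Rrm1, the catalytic subunit, stood at 105, 106 and 114 FPKM against 99.0 and 83.0 FPKM and did not pass (0.27, 95% interval -0.05 to 0.59). Tyms, which makes thymidylate, stood at 42.2, 45.8 and 42.4 FPKM against 25.1 and 22.7 FPKM (0.84 ± 0.14 SE, adjusted p = 0.00161, limma). Of these precursor genes, Rrm2 and Tyms were thus higher in embryos.

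Licensing genes moved apart. Cdc6 stood at 28.7, 23.6 and 25.3 FPKM in embryos and 12.9 and 16.8 FPKM at Day 4 (0.76 ± 0.18 SE, limma adjusted p = 0.00713). Cdt1 was the 1 replication gene lower in embryos, at 17.2, 20.9 and 22.5 FPKM against 31.2 and 48.6 FPKM (-0.997 ± 0.15 SE, adjusted p = 0.000950, limma). Gmnn, the inhibitor of Cdt1, stood at 142, 172 and 139 FPKM against 109 and 97.5 FPKM (0.54 ± 0.15 SE, adjusted p = 0.0174, limma), a call that ended under quantile normalization (0.32, adjusted p = 0.0792) and without T_Y88A TS12 or Day 4 T_Y88A. Geminin RNA was thus 6.17 to 8.28 times the level of Cdt1 per gene length in embryos and 3.48 and 2.01 times at Day 4. The 6 MCM subunits, which form 1 ring helicase, had log2 differences from -0.33 for Mcm7 to 0.60 for Mcm4. Mcm4 stood at 89.6, 90.0 and 92.5 FPKM in embryos and 62.0 and 57.8 FPKM at Day 4 (0.60 ± 0.13 SE, adjusted p = 0.00549, limma). Mcm5 passed (0.40, adjusted p = 0.0307, limma) but its call ended when any 1 library was left out and under quantile normalization (0.20, adjusted p = 0.227). Pcna passed too (0.42, limma adjusted p = 0.0395), but under quantile normalization its difference was 0.045 (adjusted p = 0.809), and its call ended under 4 other settings and without any library other than Day 4 T_Y88A. Mcm2, Mcm3, Mcm6 and Mcm7 did not pass, with log2 differences from -0.33 for Mcm7 to 0.21 for Mcm3. The highest subunit, Mcm7, was 2.83 to 3.07 times the lowest, Mcm4, in embryos and 4.84 and 6.29 times at Day 4.

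The largest difference of all 42 genes was that of Ccnd2, cyclin D2 (chromosome 6, 127125162 to 127152188). It stood at 45.0, 46.7 and 47.5 FPKM in embryos and at 1.50 and 1.46 FPKM at Day 4, a ratio of means of 31.3 (log2 difference 4.25 ± 0.15 SE, limma adjusted p = 1.51e-06). Ccnd1, cyclin D1, stood at 87.4, 85.4 and 85.1 FPKM against 33.9 and 38.5 FPKM (1.22 ± 0.13 SE, adjusted p = 0.000222, limma). Ccnd3, cyclin D3, overlapped between the sets, at 15.2, 11.4 and 15.5 FPKM against 12.2 and 13.1 FPKM (0.14, 95% interval -0.28 to 0.56). The summed level of the D-type cyclins was 143 to 148 FPKM in embryos and 47.6 and 53.1 FPKM at Day 4. D2 made up 30.5% to 32.5% of that sum in embryos and 3.15% and 2.76% at Day 4, where D3 made up 25.6% and 24.6%.

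The E-type cyclins, which act with Cdk2 at S phase entry, were also higher in embryos. Ccne2 (chromosome 4, 11190433 to 11204779) stood at 29.1, 34.1 and 31.2 FPKM against 6.35 and 6.12 FPKM (2.15 ± 0.15 SE, limma adjusted p = 2.93e-05). Ccne1 stood at 75.8, 56.6 and 49.7 FPKM against 29.2 and 41.4 FPKM (0.78 ± 0.22 SE, adjusted p = 0.0187, limma), and its call ended with no filter on low values (adjusted p = 0.0792). Its difference was 0.35 without either wt-labelled library (adjusted p = 0.108 and 0.121) and 1.34 without Day 4 T_Y88A. Cdk4 stood at 247, 315 and 258 FPKM against 175 and 184 FPKM (0.57 ± 0.14 SE, adjusted p = 0.0108, limma), and E2f1 at 4.85, 5.49 and 3.60 FPKM against 2.44 and 2.02 FPKM (0.82 ± 0.22 SE, adjusted p = 0.0138, limma). Both of these calls ended without Day 4 T_Y88A, that of Cdk4 also under quantile normalization (0.24, adjusted p = 0.151) and that of E2f1 also with no filter. Cdk2 (0.46), Cdk6 (-0.24) and Rb1 (-0.22) did not pass.

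Other genes of the same processes were examined through companion lists of 160 genes. Of 80 measured companion mitosis genes 37 were lower and 9 higher in embryos, of 46 replication genes 18 were higher and 4 lower, and of 30 G1/S genes 8 were higher and 1 lower, with median log2 differences of -0.31, 0.28 and 0.22. Against 26.0% of all genes called higher and 25.9% lower, the G1/S companions were called higher at about the share of all genes. The largest decreases were those of Nusap1, a spindle microtubule binder (-2.05, at 30.0 to 32.8 FPKM in embryos and 151 and 122 FPKM at Day 4), Pttg1, securin, which guards sister cohesion (-1.74), Hmmr, a spindle protein (-1.57), Sgol2, a protector of centromeric cohesin (-1.52), and Pkmyt1, an inhibitory kinase of Cdk1 (-1.49). The largest increases were those of Dck, a nucleoside salvage kinase (1.62), Asf1b, a histone chaperone (1.53), and Uhrf1, which maintains DNA methylation at replication forks (1.24). Of the CDK inhibitors, Cdkn1b (p27) stood at 11.1 to 13.5 FPKM in embryos and 31.6 and 24.6 FPKM at Day 4 (-1.10 ± 0.18 SE, limma adjusted p = 0.00138). Cdkn1a (p21, -0.31) and Cdkn1c (p57, 0.46) did not pass.

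The second comparison asks whether the T_Y88A substitution went with other levels of cell cycle genes in embryos. None of the 42 genes passed limma's test between the 2 T_Y88A libraries and the wt-labelled library, where 2.40% of 11145 genes did. At an unadjusted p under 0.05 there were 3 (Ccne1, Mad2l1 and Mki67). The share of all genes at that threshold is not given here, so this count is not read as a result. The 3 are described because their differences were the largest of the 42. The median log2 difference was 0.06 for replication, -0.07 for G1/S and 0.03 for mitosis genes, beside -0.01 over all genes. Ccne1 was lower in both T_Y88A libraries, at 56.6 and 49.7 FPKM against 75.8 FPKM (-0.51, 95% interval -0.87 to -0.14, limma adjusted p = 0.156). Mad2l1 was higher in both, at 127 and 97.6 FPKM against 79.1 FPKM (0.49, 95% interval 0.09 to 0.89, adjusted p = 0.206, limma). Mki67 was lower in both, at 49.3 and 74.2 FPKM against 88.5 FPKM (-0.54, 95% interval -1.01 to -0.07, adjusted p = 0.236, limma). Both stages lay on the same side of the wt-labelled library for each of these genes. The genes were named by a fit that takes its spread from these 2 stages, so this placement adds no support. It is also common, since both T_Y88A libraries lay above the wt-labelled library for 37.3% of all genes tested and below it for 37.6%. For Mki67 and Mad2l1 the TS12 library lay further from the wt-labelled library than the TS13 library.

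Differences of the remaining genes were smaller. The next was Cdt1 (0.32), at 20.9 and 22.5 FPKM against 17.2 FPKM, and all others lay between -0.23 and 0.23. Cdc20 stood at 62.4 and 55.2 FPKM against 49.8 FPKM (0.23), Cdk6 at 6.19 and 8.71 against 8.81 FPKM (-0.23), Cdc6 at 23.6 and 25.3 against 28.7 FPKM (-0.22), Cdk4 at 315 and 258 against 247 FPKM (0.20) and Pcna at 583 and 506 against 493 FPKM (0.14). Ccnd2, the gene furthest apart between embryo and culture, stood at 46.7 and 47.5 FPKM against 45.0 FPKM (0.06, 95% interval -0.30 to 0.42), and Rrm2 at 138 and 130 FPKM against 136 FPKM (-0.02, 95% interval -0.36 to 0.32). Both T_Y88A libraries lay above the wt-labelled library for 18 genes and below it for 11, against 37.3% and 37.6% of all genes tested. The interval of Mki67 reaches -1.01, so the data do not show that levels were equal. Blood and endothelial marker sums, given above, were lower in both T_Y88A libraries, and their part in these values was not tested. Over the 42 genes the difference fell with the genomic span of the gene (Spearman rho -0.418), while across 11103 genes rho was -0.034. The part of span was not tested. The fit has 1 residual degree of freedom, takes its spread from T_Y88A libraries of different stages, and measures no spread between litters.

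**Figure D5:**
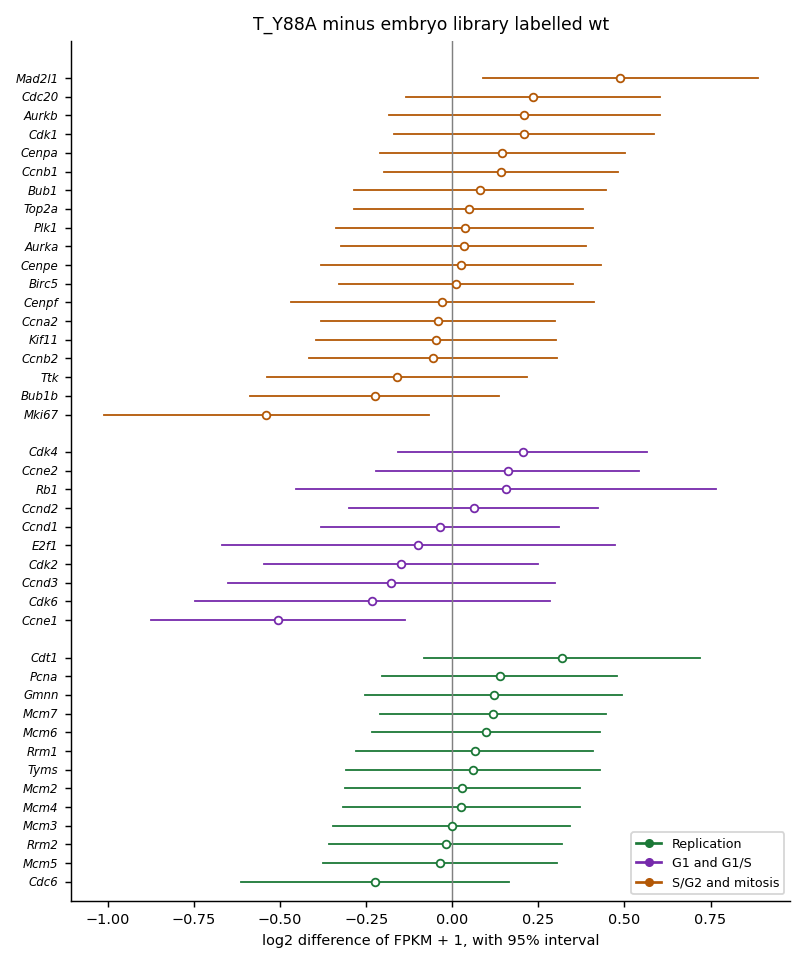
Log2 difference of FPKM + 1, T_Y88A minus the wt-labelled embryo library, from limma, with lines for the 95% interval; open points have an adjusted p of 0.05 or more, which holds for all 42 genes. The estimates run from -0.54 for Mki67 to 0.49 for Mad2l1.

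At Day 4, with 1 library per genotype and no test, 0 of the 42 genes differed by at least 2-fold, where 1.94% of 11550 genes did. Cdt1 had the largest positive difference, 31.2 FPKM wt-labelled and 48.6 FPKM T_Y88A (log2 difference 0.62), followed by Ccne1 at 29.2 and 41.4 FPKM (0.49), Cdc20 at 158 and 214 FPKM (0.44), Pcna at 329 and 440 FPKM (0.42), Cdk2 at 14.3 and 19.0 FPKM (0.39) and Cdc6 at 12.9 and 16.8 FPKM (0.35). The kinetochore genes Cenpe, at 48.2 and 28.7 FPKM (-0.73), and Cenpf, at 59.9 and 37.5 FPKM (-0.66), had the largest negative differences, and E2f1 stood at 2.44 and 2.02 FPKM (-0.19). Group medians were 0.09, 0.03 and -0.06 for replication, G1/S and mitosis. Day 4 T_Y88A had the lowest relative depth, and across 11505 genes the difference fell with the genomic span of the gene (Spearman rho -0.205, and -0.522 over the 42 genes, which share the same libraries). The part of span and depth in these differences was not tested.

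Over all 5 libraries, with embryo or Day 4 as a covariate, 0 of the 42 genes passed for genotype, where 0.0690% of all genes did. Cdt1 and Cdc20 had an unadjusted p under 0.05 in limma, and the share of all genes at that threshold is not given here. The log2 difference, T_Y88A minus wild type, was 0.45 for Cdt1 (adjusted p = 0.447) and 0.32 for Cdc20. Cdt1 and Cdc20, named here by p in this same fit, lay above the wt-labelled value of their own set in all 3 T_Y88A libraries. This placement adds no support and was not particular to them, since Cdk1, Mcm7 and Pcna, among others, shared it. Its share over all genes is not given here. A test of whether the genotype difference itself differed between embryo and Day 4 passed for 0 of the 42 genes and 0.147% of all genes. Ccne1 and Cenpe had an unadjusted p under 0.05 in limma, again without the share of all genes beside it. Ccne1, lower in T_Y88A embryos and higher in T_Y88A cultures, had an interaction of -0.99 ± 0.24 SE (limma adjusted p = 0.269).

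Between the 2 T_Y88A embryo stages, with 1 library each and no test, 0 of the 42 genes differed by at least 2-fold, where 1.03% of 11057 genes did. Rb1 stood at 3.08 FPKM in TS12 and 5.13 FPKM in TS13 (log2 difference 0.59), Mki67 at 49.3 and 74.2 FPKM (0.58), Cdk6 at 6.19 and 8.71 FPKM (0.43) and Cenpf at 26.3 and 35.5 FPKM (0.42). In the other direction E2f1 stood at 5.49 and 3.60 FPKM (-0.50), Mad2l1 at 127 and 97.6 FPKM (-0.38), Gmnn at 172 and 139 FPKM (-0.31) and Pcna at 583 and 506 FPKM (-0.20), while Mcm3 stood at 147 and 164 FPKM (0.16). Group medians were 0.04 for replication, -0.06 for G1/S and -0.05 for mitosis. Here the difference rose with genomic span across 11016 genes (Spearman rho 0.264, and 0.663 over the 42 genes), and the part of span was not tested.

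Some levels are uncertain for technical reasons that the files do not settle. Pcna, Tyms, Ccnd3, Ccnb1 and Ccnb2 have named pseudogene copies in RefSeq, to which reads could be split. Coding genes overlap 11 of the 42 genes by RefSeq coordinates, among them Cdc20, Ccna2, Cdk4 and Ccne2, and the sources used here do not give whether counting used strand. Ints8, which overlaps Ccne2, stood at 33.3 to 38.7 FPKM in embryos and 17.7 and 13.7 FPKM at Day 4. Exosc9, which overlaps Ccna2, stood at 84.5 to 100.3 FPKM against 67.6 and 62.0 FPKM. Ints8 was thus higher in embryos like Ccne2, while Exosc9 was higher and Ccna2 lower. Elovl1, which overlaps Cdc20, stood at 4.07 to 10.3 FPKM against 5.64 and 6.52 FPKM. Tspan31, which overlaps Cdk4, stood at 33.0 to 46.5 FPKM against 41.9 and 49.7 FPKM. The part of overlap in these levels was not tested.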

How the data were processed

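RNA was sequenced from T-positive sorted cells in 5 libraries; 7 chromatin samples are not analysed here. Libraries were made with a ScriptSeq v2 low-input kit, per the labels' protocols. The FPKM values were deposited by the authors, in build mm10; the submitters' processing notes list Cufflinks 2.1.1, TopHat2 2.0.8 and bedtools 2.23.0 without saying what each did. Columns were matched to samples by label (5 matched, 0 left over).

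Values were analysed as log2(FPKM + 1), which understates changes of low genes, keeping genes whose mean reached 1 FPKM and leaving out 789 small RNA symbols. All 42 genes passed this filter. R 4.3.3 with limma 3.58.1 and a variance trend was run on the whole table; p-values are two-sided and Benjamini-Hochberg adjusted over every gene in the fit (threshold 0.05). The embryo fit has 1 and the 5-library fit 2 residual degrees of freedom. Pairs of single libraries were compared by a 2-fold rule. The fits were run on simulated data drawn from their own estimated spread, which cannot show that the model holds for these libraries. Plots used Python 3.11.15 and matplotlib 3.10.9. Relative depth is the commonest ratio between libraries among values below 0.06 FPKM; absolute depth is unknown, so no counting interval or floor is given. Replicate labels name libraries only; nothing says that they came from separate animals or cultures, so p-values may measure technical spread. RefSeq coordinates and promoters are of GRCm38.p6, counted from 1; all 42 symbols matched. The genes, role groups, companion lists and marker lists were chosen with earlier results of these data known. Named genes are those past the threshold with the largest differences (at most 12 in a fit), the 3 largest per role in each comparison, the MCM, cyclin D, E and B families and the pair Cdt1 and Gmnn, and the 8 largest companion differences with 3 CDK inhibitors. The other genes are named to account for all 42, and the 4 promoters shown were chosen after their values were seen. Alternatives were another pseudocount (0.1), filters (none, 5 FPKM), scalings, variance settings, covariates and libraries left out.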

Additional observations from a re-analysis of the deposited data

How the results depend on the processing

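No paired analysis was possible, as embryos had 1 wt-labelled library over both stages and Day 4 had 1 library per genotype. The labels also name no pairs. Counts of 0 genes called by genotype, in embryos and over 5 libraries, and of 0 genes at least 2-fold apart at Day 4 and between stages, were the same under every alternative run; for the embryos, leaving out a T_Y88A library leaves no test. Of the 29 genes called between embryo and Day 4 libraries, 19 kept their call under each of 14 alternatives that tested them, and Bub1, Ccne1, Cdk4, Cenpf, E2f1, Gmnn, Mcm5, Mki67, Pcna and Plk1 lost it under at least 1. Leaving out 1 library gave 24 to 26 calls, 11 to 12 mitosis genes lower, 4 to 5 replication genes higher and 5 to 6 G1/S genes higher; fits without embryo wild type or either Day 4 library were added after seeing the data. Under quantile normalization 4 replication genes were higher. Quantile normalization also moved the median log2 difference over the 42 genes to 0.054 (embryo genotype), -0.069 (embryo minus Day 4, where it was 0.092), 0.048 (genotype over 5 libraries), 0.052 (Day 4) and 0.050 (stage), and median ratio scaling moved that at Day 4 to 0.033; the cause was not tested. Over 5 libraries the genotype median ran from 0.0030 to 0.031 when 1 library was left out. Counts over all genes moved too: 267 genes were called between embryo genotypes, against 34 under quantile normalization, 0 with no filter and 190 at a mean of 5 FPKM or more, and the 8 genes called by genotype over 5 libraries became 1 with no filter and 54 without the Day 4 wt-labelled library. With FPKM alone, depth limits for single values cannot be stated.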
